A study of Drosophila melanogaster with 16 samples.

Results

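The salivary glue genes and salivary gland regulators described here are Sgs1, Sgs3, Sgs4, Sgs5, Sgs7, Sgs8, Eig71Ee, ng3, fkh and sage, 10 of the 17559 genes measured in libraries labelled as Drosophila melanogaster trachea. They were chosen by gene symbol, with their levels in these libraries already known, because salivary glands rather than trachea are their usual site. Their values in the 16 libraries are therefore a description, and no test was run on them.

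Glue proteins are made in large amounts by the larval salivary gland late in the last larval instar, when the steroid hormone ecdysone switches their genes on. The glue is expelled as the animal pupariates and fixes the puparium to its support, and the glue genes are switched off again by a later, stronger ecdysone pulse. Sgs1, Sgs3 and Sgs4 encode long repeat-rich mucin-type proteins, and Sgs5, Sgs7 and Sgs8 short glue proteins. Eig71Ee encodes a further mucin-like protein from a chromosome puff at which other genes become active after glue production. ng3 is a small "new glue" gene near Sgs4, fkh encodes the forkhead transcription factor that sets up and maintains the gland, and sage encodes a basic helix-loop-helix factor that works with it.

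RNA sequencing was done on isolated trachea of Canton S larvae, a standard wild-type strain, in 4 groups of 4 libraries: air-exposed females, smoke-exposed females, air-exposed males and smoke-exposed males. Exposure lasted 60 min at an intensity of 4 puffs per min, with 3R4F research cigarettes as the source of smoke. The labels give neither the age of the larvae nor how many were pooled, and they do not say whether replicates came from separate cultures, so p-values may measure only a technical spread. Recovered totals were 15036560 to 23434521 reads per library. Tracheal markers were present throughout: Gasp, a chitin-binding protein of the tracheal cuticle, had normalised counts of 11506 to 21053 over the 16 libraries, and trh, the transcription factor that specifies tracheal cells, 7463 to 17326. Levels are given below as normalised counts, which are reads divided by a factor per library that the authors set within each sex.

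Male air 3 stood apart from the other libraries. It held 0.772% of its 15141228 reads in the 10 genes (95% Wilson interval 0.768 to 0.777%, counting error only). Male air 1, 2 and 4 held 0.00373%, 0.00135% and 0.00237%. Female air 2 also stood apart, in ecdysone-response genes described further on. The differences of the 10 genes and the counts for lists of other genes are given with and without these libraries.

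**Figure D1:**
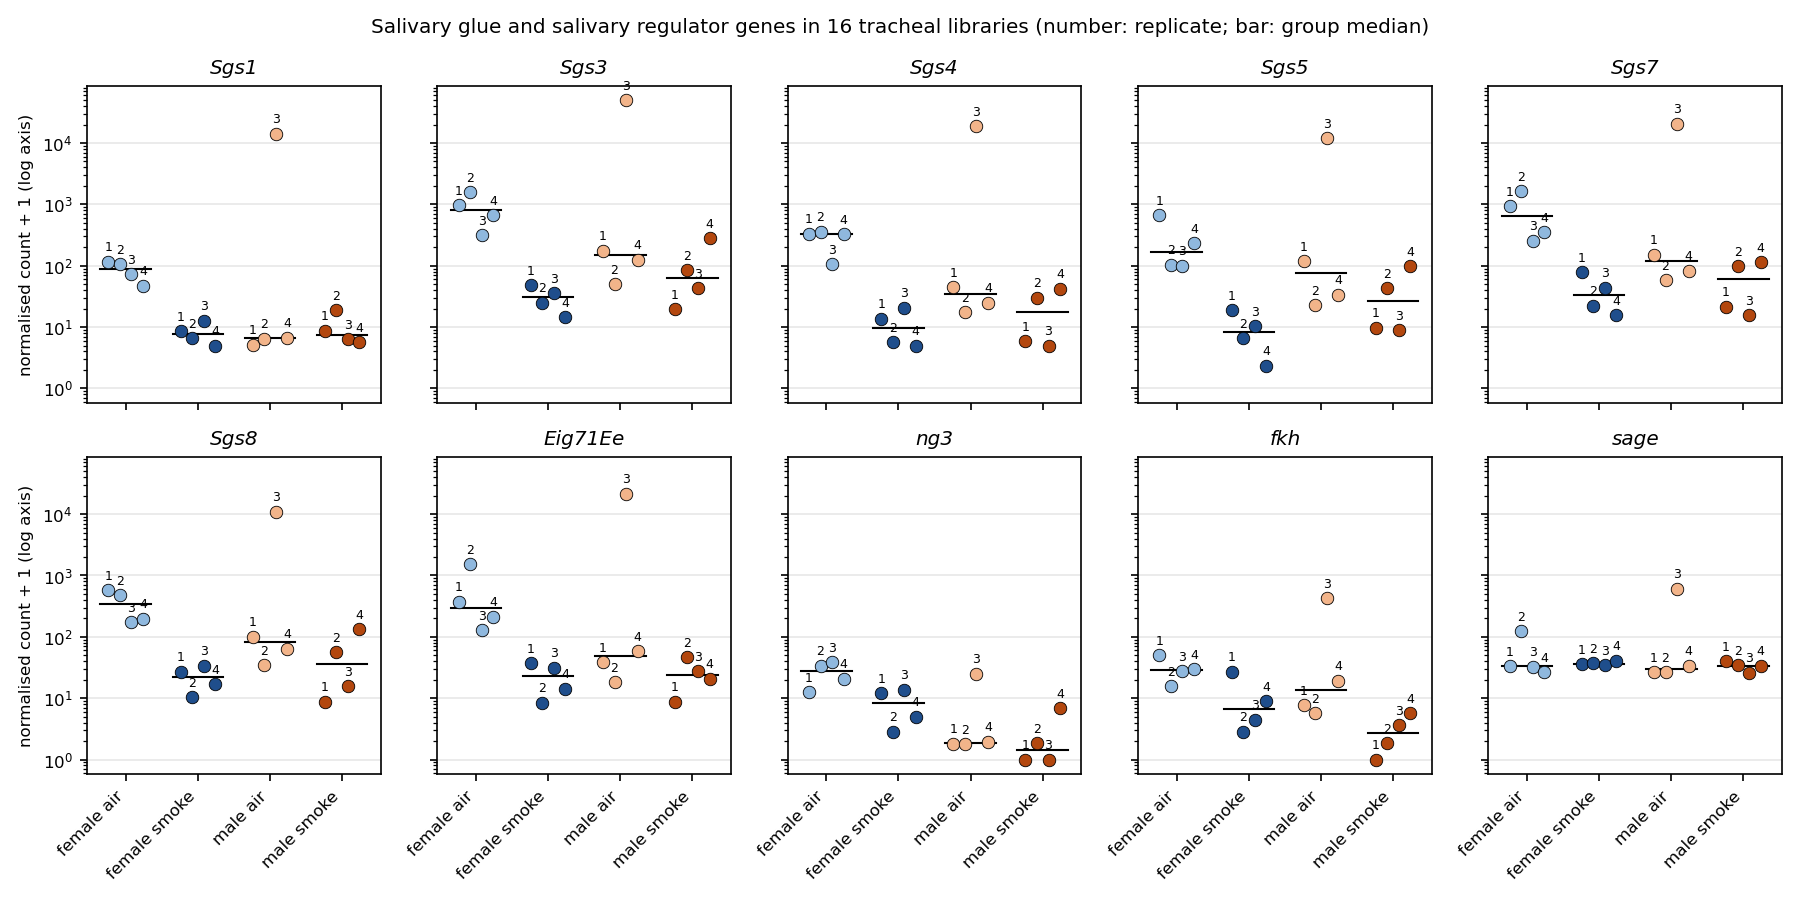
Normalised count plus 1 (log axis) of each of the 10 genes in each library, by sex and exposure; points are libraries, numbers are replicates and bars are group medians. Male air 3 lies above all 15 other libraries in 9 of the 10 panels, ng3 being the exception, and female air lies above female smoke without overlap in 7.

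In females, 7 of the 10 genes, the 6 Sgs genes and Eig71Ee, had every smoke library below every air library. Over all genes tested in females, 10.8% had that pattern, and nothing is read from the contrast because the genes were chosen on these values. All 10 genes passed the filter on low values in females, which asks for a normalised count of 10 or more in 4 or more of a sex's 8 libraries. The median difference of the 10 was -4.08 on the log2 scale, with a range of -4.76 to -0.23, beside -0.02 for all 8877 genes tested, and -3.60 without female air 2. In bulk samples such as these, fewer cells of a type and less RNA per cell cannot be told apart.

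Sgs3, a long mucin-type glue protein, had normalised counts of 964, 1585, 316 and 668 in female air 1 to 4 and of 47.1, 24.1, 34.9 and 13.3 in female smoke 1 to 4. The lowest air library was thus above the highest smoke library, and the means were 883 ± 537 and 29.9 ± 14.5 (SD, n = 4 each). The smoke minus air difference was -4.75 on the log2 scale, and -4.39 without female air 2. Sgs4, a repeat-rich glue protein whose gene overlaps dnc, had 329, 355, 105 and 326 in air and 12.6, 4.63, 19.8 and 4.00 in smoke. Its air level was close in 3 libraries and low in female air 3, and the difference was -4.74, or -4.57 without female air 2.

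Sgs1, the longest of the glue genes, had 115.2, 106, 71.8 and 46.4 in female air and 7.58, 5.56, 11.6 and 4.00 in female smoke. The groups did not overlap, but the smoke values rest on 3 to 10 reads. The difference was -3.39, and -3.26 without female air 2.

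Sgs7 and Sgs8 are short, similar glue genes, so how their reads were divided is uncertain. Sgs7 had 939, 1651, 253 and 348 in female air and 76.6, 21.3, 43.1 and 14.7 in female smoke, a difference of -4.20 (-3.72 without female air 2). Sgs8 had 580, 480, 171 and 195 in air and 26.1, 9.27, 32.6 and 16 in smoke, a difference of -3.97 (-3.76 without female air 2). Neither gene overlapped between the groups, and both were higher in air 1 and 2 than in air 3 and 4.

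Sgs5, a short glue protein, ordered the air libraries differently, with 660, 103, 99.6 and 230 in female air and 17.7, 5.56, 9.32 and 1.33 in female smoke. Its smoke values rest on as few as 1 read, and the difference was -4.76, or -5.08 without female air 2. Eig71Ee had 373, 1524, 126 and 212 in female air and 36.2, 7.42, 30.3 and 13.3 in female smoke. Female air 2 was the highest of the group for Eig71Ee, and the difference was -4.19 with it and -3.48 without it.

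The new glue gene and the transcription factors differed from the glue genes in that their groups overlapped in females. ng3 had 11.6, 33.0, 37.8 and 19.9 in female air and 10.9, 1.85, 12.8 and 4.00 in female smoke, a difference of -1.80. fkh had 48.7, 14.6, 26.5 and 28.7 in air and 26.1, 1.85, 3.49 and 7.99 in smoke, a difference of -1.91. sage had 32.5, 123, 31.5 and 25.4 in air and 34.5, 36.2, 33.8 and 40.0 in smoke, a difference of -0.23. For sage the female air mean rests on female air 2: without that library the difference was 0.27 and all 4 smoke libraries were above the 3 air libraries, as in 18.9% of all genes tested. Without it, fkh no longer overlapped between the groups (-2.20), ng3 still did (-1.64), and 8 of the 10 genes had every smoke library lower, beside 16.2% of all genes tested.

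In males no gene of the 10 separated smoke from air, beside 9.11% of all genes tested with every smoke library lower. Only 7 of the 10 passed the filter on low values in males, Sgs1, ng3 and fkh not passing it. The differences were negative for all 10 genes with male air 3 (median -2.87) and for 7 of 10 without it (median -0.76), when the groups of all 10 overlapped, beside 10.6% of all genes with every smoke library lower.

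Sgs3 had 174, 49.1, 49459 and 124 normalised counts in male air 1 to 4 and 18.4, 83.5, 42.3 and 281 in male smoke 1 to 4. Outside male air 3 the male air and smoke libraries overlapped, and the highest of them was male smoke 4. The log2 difference was -2.85 with male air 3 and -0.62 without it. Sgs4 had 43.8, 16.4, 18815 and 24 in air and 4.85, 29.0, 3.97 and 41.0 in smoke, and its difference went from -3.32 to -0.96. Sgs1 had 4.13, 5.45, 14200 and 5.75 in air and 7.76, 17.9, 5.29 and 4.68 in smoke, and its difference went from -2.27 to 0.53, turning its sign.

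The short glue genes behaved like Sgs3 in males. Sgs5 had 117, 21.8, 12026 and 32.6 in male air and 8.73, 41.7, 7.94 and 97.2 in male smoke, with differences of -2.89 and, without male air 3, -0.87. Sgs7 had 151, 57.6, 20550 and 82.4 in air and 20.4, 97.1, 14.6 and 114 in smoke, with differences of -3.0 and -1.04. For Sgs8 the values were 99.9, 33.5, 10955 and 63.3 in air and 7.76, 55.4, 14.6 and 132 in smoke, with differences of -2.81 and -0.93. In all 3 genes male smoke 2 and 4 were above male smoke 1 and 3, and within the range of male air 1, 2 and 4 or above it.

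Eig71Ee had 37.2, 17.1, 21643 and 57.5 in male air and 7.76, 45.2, 26.5 and 19.9 in male smoke, with differences of -2.97 and, without male air 3, -0.65. Unlike the short glue genes it was not high in male smoke 4. fkh had 6.61, 4.67, 425 and 18.2 in air and 0, 0.852, 2.65 and 4.68 in smoke; the smoke values are 0 to 4 reads, and a count of 0 allows up to 3 reads. Its difference was -3.29 with male air 3 and -1.92 without it. sage had 25.6, 25.7, 603 and 32.6 in air and 38.8, 33.2, 25.1 and 32.8 in smoke, with differences of -0.90 and, without male air 3, 0.20. ng3 had 0.826, 0.779, 24.2 and 0.958 in air and 0, 0.852, 0 and 5.85 in smoke. That is at most 1 read in each of the male air libraries other than 3, and the male difference of ng3 was -0.91 with male air 3 and 0.03 without it.

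**Figure D2:**
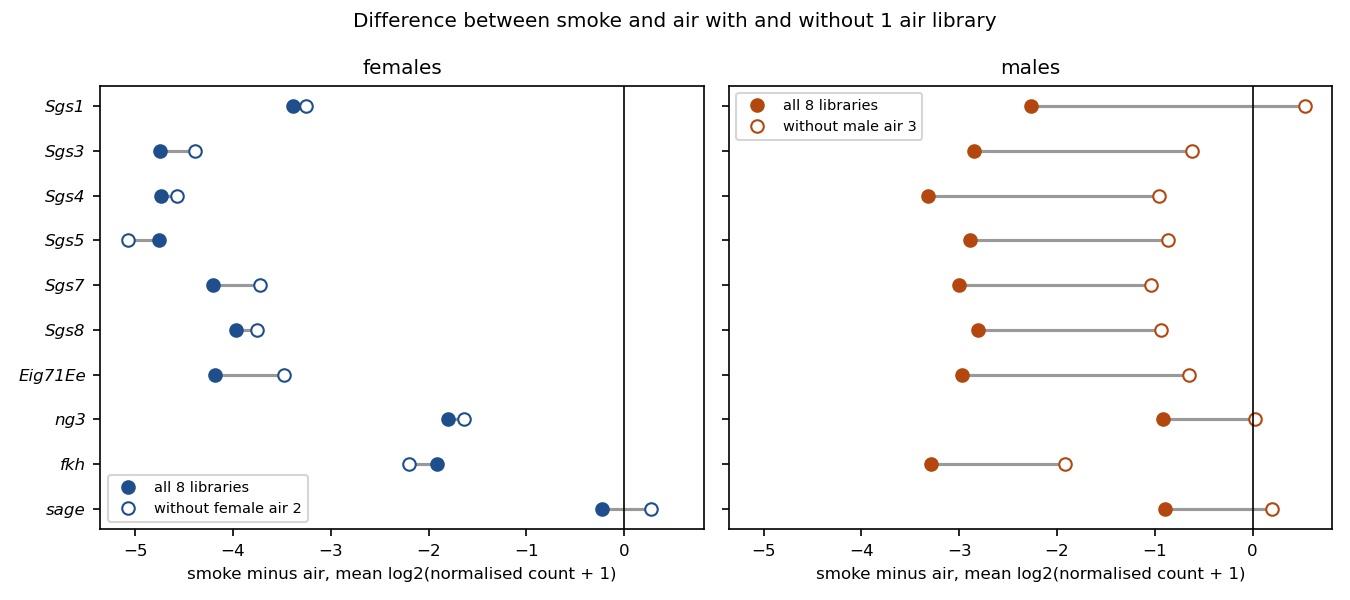
Smoke minus air difference of the mean log2(normalised count + 1) of each gene in females (left) and males (right), with all 8 libraries (filled) and without 1 air library (open: female air 2, male air 3). In females 9 genes stay below 0 and sage crosses to 0.27; in males all 10 move toward or past 0, Sgs1 reaching 0.53.

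Set against the median of the other 3 male air libraries, male air 3 was 2605 times as high for Sgs1, 785 times for Sgs4, 582 times for Eig71Ee and 400.01 times for Sgs3. The ratio was 369 for Sgs5, 249 for Sgs7 and 173 for Sgs8, and it was lower for fkh (64.3), ng3 (29.3) and sage (23.5). All 10 genes were at least 10 times as high, though for ng3 that is 19 reads against 1. Of the 8705 genes tested in males, 1.87% reached that ratio. Those tested hold 7 of the 10, since Sgs1, ng3 and fkh did not pass the filter. Of the 11 genes tested (0.126%) that were at least 100 times as high, 6 were among the 10, and the other 5 were CG7606, CG12310, CG7587, CG6409 and vg. Sgs1 is not counted there because it did not pass the filter in males.

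Per length, in CPM (counts of the gene scaled to the library total) per kilobase of exon, Sgs7 ranked at place 14 of 17253 genes in male air 3 with 3324, ahead of Sgs3 with 2316 at place 29 and Sgs8 with 1585 at place 64. Sgs4 (1026), Sgs5 (982) and Eig71Ee (756) lay between places 112 and 134, and Sgs1 (187) at place 373. The regulators were far lower on that scale, sage at 21.9 and fkh at 5.14, and ng3 was lowest at 2.11. In female air the same scale gave 41.0 to 286 for Sgs7, 14.8 to 79.5 for Sgs3 and 4.41 to 57.1 for Eig71Ee, ranges that overlap, and 0.634 to 1.67 for Sgs1. sage, at 0.960 to 4.78, was then above Sgs1 only in part, since those ranges overlap too.

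The proportions among the genes also differed between libraries. Per 100 reads of Sgs3, Sgs1 had 28.7 reads in male air 3 and 6.68 to 22.7 in female air. ng3 had 0.05 reads per 100 of Sgs3 in male air 3 and 1.20 to 11.95 in female air, and sage 1.2 against 3.37 to 9.96. Beside female air, male air 3 thus had more Sgs1 and less ng3 and sage per read of Sgs3. Outside female air 2 and male air 3, sage stayed at 25.1 to 40.0 normalised counts, so its ratio largely follows Sgs3. In smoke libraries, on few reads, sage reached 300 per 100 (female smoke 4) and Sgs1 42.1 (male smoke 1). Eig71Ee stood at 96.2 per 100 in female air 2, 31.7 to 39.8 in the other female air libraries and 43.8 in male air 3. Sgs5 stood at 6.48 in female air 2 and 31.5 to 68.4 in the other female air libraries. The Sgs7 to Sgs8 ratio was 1.88 in male air 3 and 1.48 to 3.44 in female air.

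**Figure D3:**
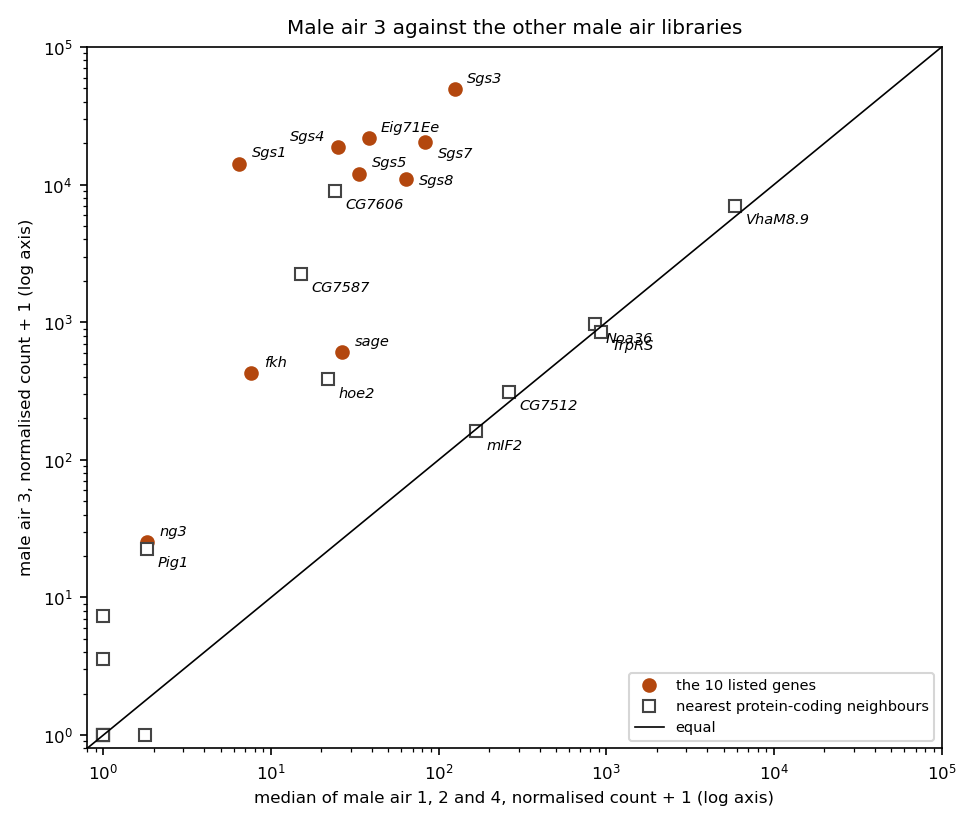
Normalised count plus 1 in male air 3 against the median of male air 1, 2 and 4 (both log axes) for the 10 genes (filled) and their nearest protein-coding neighbours (open squares); the line marks equal values. The 10 genes and the neighbours CG7606, CG7587, hoe2 and Pig1 lie above the line, and the neighbours of fkh and sage lie on it within a ratio of 0.93 to 1.20.

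The nearest protein-coding genes on either side of the 10 were taken by position alone and tested. Of 17 such neighbours 16 were analysed here, and 8 were tested in each sex. In females 2 were called lower in smoke by limma (adjusted p under 0.05), beside 7.09% of all genes tested, and both flank Sgs5. They were CG7587, the gene called Sgs5bis for its likeness to Sgs5 (-4.52 ± 0.65 SE, adjusted p = 0.00355), and CG7606 (-3.82 ± 0.69 SE, adjusted p = 0.00865). CG7587 had 142, 343, 69.3 and 60.7 in female air and 9.26, 3.71, 5.82 and 1.33 in female smoke, with no overlap. It passed the filter on low values only through the 4 female air libraries, so a gene with its level had to differ there. It was not tested when 1 of them was left out. The pairs of replicates were fitted with the filter of all 8 libraries. There its call was lost in replicates 1 and 2 alone (limma adjusted p = 0.0943) and kept in 3 and 4 alone. CG7606, which has no role given here, was called without each of the 8 libraries but not in replicates 1 and 2 or 3 and 4 alone (adjusted p 0.125 and 0.0518). In males limma called 0 of the 8 neighbours tested, 1 having an unadjusted p under 0.05, and edgeR and DESeq2 called 0, with the same counts without male air 3. Without female air 2, limma called 2 of the 7 tested in females lower, CG7606 and hoe2, beside 9.6% of all genes. CG7587 had 10.7, 14, 2255 and 14.4 in male air.

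Of the other neighbours only hoe2 and Pig1 were clearly higher in male air 3 with a count of at least 10 there. hoe2, beside Sgs1, had 387 in male air 3 against a median of 21.0 in the other male air libraries, a ratio of 18.4. Its female difference of -1.83 was not called by limma (adjusted p = 0.0572), but was by edgeR (0.0333), by DESeq2 (0.00274) and by limma without female air 2 (0.00490). mIF2 and Noa36 beside fkh, and VhaM8.9 and TrpRS beside sage, were 0.93 to 1.20 times as high in male air 3 as in the other male air libraries. In 7 neighbours, ng1, ng2 and Eig71Ed among them, no library reached a normalised count of 10.

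A list of 17 other salivary gland genes held 16 that were analysed here and 8 that could be tested in females. Of those, 2 were called lower in smoke, beside 7.09% of all genes, and 0 higher. The 2 were Sgs5bis, which passed the filter only through the air libraries where it is high, and eyg, a Pax-family transcription factor of the gland primordium that imaginal discs also express. eyg had 172, 46.8, 90.8 and 136 in female air and 48.8, 6.49, 22.1 and 7.99 in smoke, so its groups overlapped (-2.60, adjusted p = 0.0294). The call of eyg was lost without female air 1, 3 or 4 or female smoke 2, 3 or 4 (adjusted p 0.0546 to 0.0798). Without female air 2, 7 were tested, Sgs5bis not among them, and 2 were called lower and 1 higher, beside 9.6% and 13.1% of all genes. toe, the Pax gene next to eyg, was at -1.88 (adjusted p = 0.0798, or 0.0329 without female air 2). PH4alphaSG2, a salivary prolyl 4-hydroxylase, was at 0.74 in females (adjusted p = 0.133) and -1.23 in males (adjusted p = 0.0946). Papss and pip, which serve sulphation in the secretory tissue, were at -0.07 and -0.06 in females.

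In males 6 of the 16 were tested and 1 was called, higher in smoke, beside 8.89% of all genes. This was CrebA, the transcription factor that raises secretory capacity and that trachea also expresses (0.59, adjusted p = 0.0434), and its call was lost without any of male air 1 to 4 or male smoke 1, 2 or 4 (adjusted p 0.0678 to 0.119, 0.0959 without male air 3). In females CrebA was at 0.52 (adjusted p = 0.172, or 0.010 without female air 2). The summed level of the list was 320 CPM in male air 3, 226 to 266 in the other male air libraries and 161 to 347 in female air. CrebA gave 39.2% of it and Sgs5bis 36.5% in male air 3, and CrebA 64.3 to 67.3% in the other male air libraries. CrebA alone had 2648, 3076, 2418 and 2808 normalised counts in male air, male air 3 being the lowest of the 4. Pig1, a gene next to Sgs4 that is active before the glue genes, had 0.826, 0.779, 21.6 and 7.67, and PH4alphaSG1, another salivary prolyl 4-hydroxylase, 0.826, 0.779, 10.2 and 0. The list thus held genes that were high in male air 3, such as Sgs5bis and Pig1, and genes that were not, such as PH4alphaSG2 (30.5 against 23 to 36.6), pip and Papss.

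Genes that the larval stage sets were examined beside the glue genes. Of 10 other genes of the 71E puff, which become active after glue production, all were analysed here, none passed the filter and 5 were at 0 in every library. Their highest value was 12.7, for Eig71Ea in male air 3. Their summed level was 0.859 CPM there and at most 0.515 in any other library.

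The ecdysone-induced nuclear receptors Hr4, Hr3 and Eip78C were named after their values were seen, and they ordered the air libraries differently in the 2 sexes. Hr4 had 84.3, 3734, 61.8 and 78.4 in female air and 653, 697, 72.5 and 2482 in male air. Hr3 had 3.09, 591, 3.78 and 4.42 in female air and 145, 153, 1.27 and 408 in male air. Female air 2 was the high library and male air 3 the low one for both. The air libraries with the highest Sgs3 in each sex thus had the highest and the lowest Hr4 of their groups. A low Hr4 was not particular to male air 3, since replicate 3 was also lowest in female air, female smoke (74.5) and male smoke (51.6). Eip78C had 20.1, 1320, 12.6 and 21.0 in female air, highest in female air 2.

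Over the smoke libraries Hr4 had 285, 485, 74.5 and 624 in females and 68.9, 835, 51.6 and 2365 in males. In males, smoke 2 and 4 were the high libraries for Hr4 and also for Sgs3, Sgs5, Sgs7 and Sgs8. In females, smoke 2 and 4 were again the high libraries for Hr4, but those Sgs genes went the other way. Each was lower in female smoke 2 and 4 than in female smoke 1 and 3 (Sgs3 24.1 and 13.3 against 47.1 and 34.9). None of the 3 receptors was called between smoke and air in either sex (limma, adjusted p of Hr4 0.83 in females and 0.73 in males).

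Of 20 ecdysone-response genes tested in each sex, 2 were called higher and 1 lower in female smoke, beside 10.9% and 7.09% of all genes. Without female air 2, 6 of 19 were called higher and 1 lower, beside 13.1% and 9.6% of all genes. EcR, the ecdysone receptor, rose by 0.66 on the log2 scale (adjusted p = 0.00532) and usp, its partner, by 0.34 (adjusted p = 0.0323), and ImpE1, an ecdysone-induced gene, fell by 2.09 (adjusted p = 0.0488). The call of EcR held without each of the 8 libraries but not in replicates 1 and 2 alone (limma adjusted p = 0.163). That of usp was lost without female air 1, 3 or 4 or female smoke 1, 3 or 4 (adjusted p 0.0553 to 0.0900) and with libraries scaled to the same total (0.0985), and that of ImpE1 without female air 1 or 4 or any smoke library (0.0597 to 0.117) and with no filter (0.0594). In males 5 were called higher and 2 lower, beside 8.89% and 4.64% of all genes, and without male air 3, 3 were called higher and 0 lower, beside 6.1% and 2.52%. The 7 male calls were led by Cyp18a1, an ecdysone-inactivating enzyme, at 2.6 (adjusted p = 0.0238), Kr-h1, a juvenile hormone response factor, at 1.28 (0.00393), and Eip63F-1, an ecdysone-induced gene, at -1.09 (0.0366). EcR (0.59, limma adjusted p = 0.00571) and usp (0.33, 0.0363) were called higher in male smoke too. Without male air 3 EcR was still called (0.0135) and usp was not (0.0779). The sex difference was called for neither (limma, adjusted p 0.888 and 0.995). The call of Kr-h1 held without each of the 8 male libraries but not in replicates 3 and 4 alone (limma adjusted p = 0.144). That of Cyp18a1 was lost without male air 1 or male smoke 1, 3 or 4 (adjusted p 0.0504 to 0.0748) and that of Eip63F-1 without male air 2 or 3 or male smoke 1, 2 or 3 (0.0625 to 0.103). The part of larval stage in the glue gene levels was not tested.

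**Figure D4:**
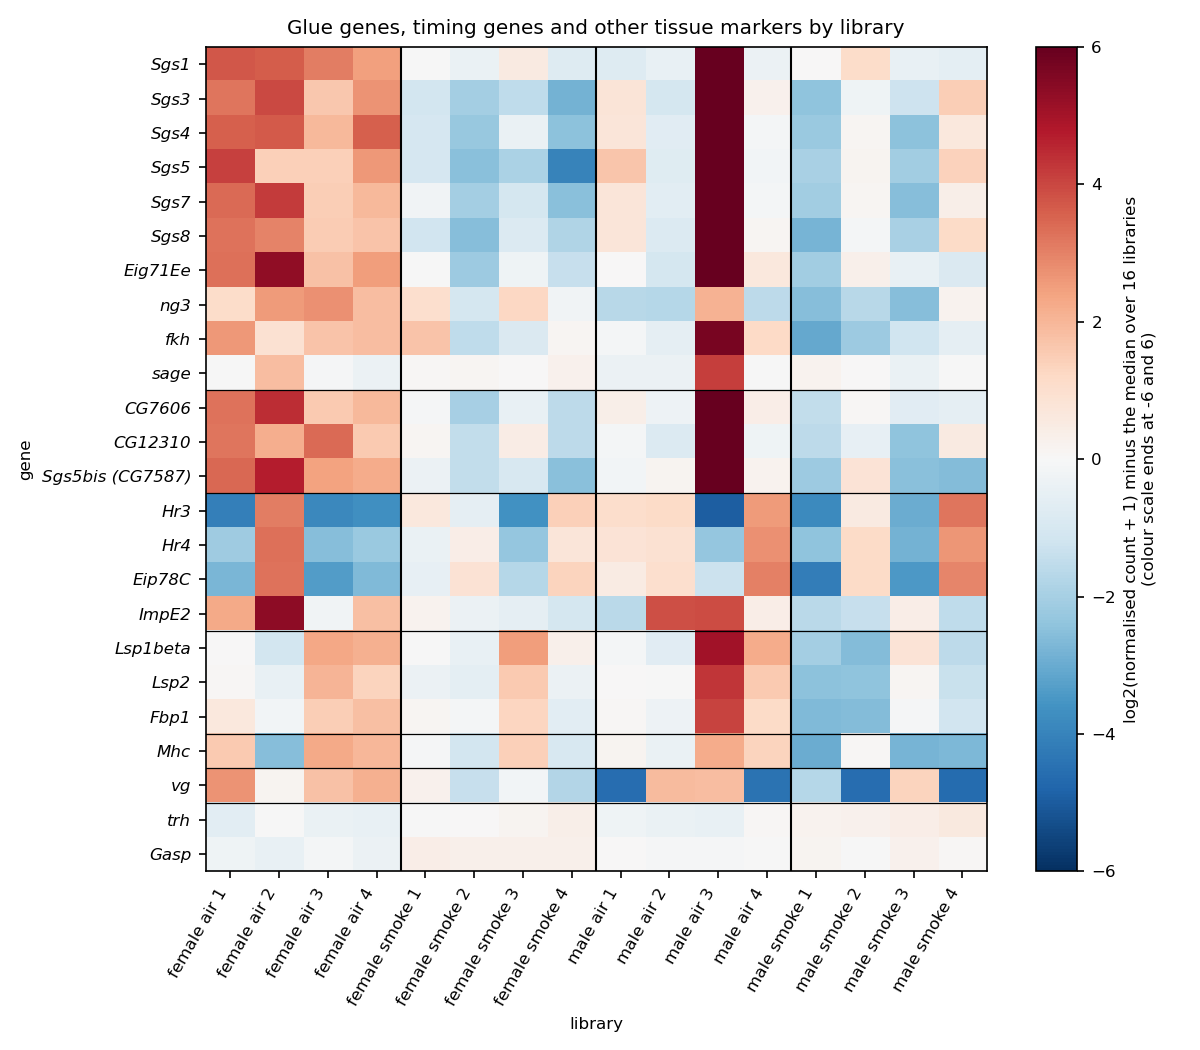
Departure of log2(normalised count + 1) from the median over the 16 libraries for the 10 genes, 3 genes most like them, ecdysone-response, fat body, muscle, disc and tracheal genes (colour ends at -6 and 6). The glue genes are high in female air and in male air 3, Hr3, Hr4 and Eip78C are high in female air 2 and low in male air 3, and trh and Gasp vary little.

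Markers of other tissues were read in the same libraries. The 7 fat body genes, which encode larval storage proteins and lipid carriers, summed to 34527 CPM in male air 3 and to 992 to 5326 in the other male air libraries. All 7 were in male air 3 at least 10 times the median of the other 3 male air libraries, beside 1.87% of all genes tested. Male air 4 had the next highest sum of the male air libraries (5326 CPM), so the step above it was smaller. In female air the sum was 2007, 870, 6332 and 6129, so it was lowest in female air 2, where Sgs3 was highest. In male smoke it was 221 to 1719, and in female smoke 1215 to 5732. Replicate 3 had the highest sum in each of the 4 groups, so a high sum was not particular to male air 3, though its size was. By limma 0 of the 7 were called in either sex, and edgeR called 0 (medians -0.33 in females and -3.0 in males, -2.05 without male air 3). At an unadjusted p under 0.05 there were 0 in females (2 without female air 2) and 7 in males (4 without male air 3). DESeq2 called 0 in females with or without female air 2, and in males 7, all lower in smoke, or 1 without male air 3. With the replicate number added to the fit as a block, limma called 7 lower in males.

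Muscle genes summed to 10060 CPM in male air 3 and 2103 to 4612 in the other male air libraries, and to 585 to 10392 in female air. Of 9 muscle genes tested limma called 0 in females, where 0 had an unadjusted p under 0.05, edgeR called 0 and DESeq2 1. Without female air 2, limma called 8 lower in female smoke, beside 9.6% of all genes, and edgeR and DESeq2 6 each. In male smoke 4 were called lower by limma, beside 4.64% of all genes, 0 by edgeR and 8 by DESeq2. With the replicate number as a block limma called 1. Without male air 3, all 3 tools called 0, and 9 had an unadjusted p under 0.05. TpnC73F, a troponin C gene and the only one of the 4 male calls with no overlap, was at -2.61 (adjusted p = 0.0398), a call lost by edgeR (0.0854) and without any male library other than smoke 2 (0.0678 to 0.108). Imaginal disc genes summed to 207 to 332 in female air and 120 to 192 in female smoke. Of 9 tested, 4 were called lower in female smoke, beside 7.09% of all genes, or 7 without female air 2, beside 9.6%. Among the 4 were en (-1.84, adjusted p = 0.0220) and hh (-1.73, adjusted p = 0.0256), a patterning factor and a signalling protein. Both calls were lost without female air 1 or 4 or female smoke 2 or 4, and that of hh also without female smoke 3 (adjusted p 0.0564 to 0.0718). In males 1 was called higher, beside 8.89% of all genes. Without male air 3, limma and edgeR called 0 of the 5 tested, 2 having an unadjusted p under 0.05, and DESeq2 called 1 higher and 1 lower.

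Of 8 hemocyte genes limma called 1 higher in females, beside 10.9% of all genes, and 0 without female air 2, when 1 had an unadjusted p under 0.05, edgeR called 0 and DESeq2 1. In males limma and edgeR called 0 with or without male air 3. With it 5 had an unadjusted p under 0.05 and DESeq2 called 4 lower. Without it 4 had such a p and DESeq2 called 0. With all male libraries and the replicate number as a block, limma called 4 lower. Of 4 midgut genes tested limma and edgeR called 0 in either sex; at an unadjusted p under 0.05 there was 1 in females and 0 in males, and DESeq2 called 1 and 0. Without female air 2, limma and DESeq2 called 1 midgut gene lower in females and edgeR 2, beside 9.6% of all genes by limma. Without male air 3 all 3 tools called 0 of 3, 0 having an unadjusted p under 0.05.

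Of 11 tracheal genes 3 were called higher and 2 lower in female smoke, beside 10.9% and 7.09% of all genes. Without female air 2 the counts were 4 and 2, beside 13.1% and 9.6%. In male smoke 2 were called higher, beside 8.89%, or 1 without male air 3, beside 6.1%. nyo, a zona pellucida domain protein, fell by 1.42 in females (adjusted p = 0.0223), a call lost without female air 4 or female smoke 3 or 4 (0.0524 to 0.0621). The other female faller was vvl, a transcription factor of the trachea, at -0.38 (adjusted p = 0.0235); it was named after its values were seen, and its call was lost without female air 1, 3 or 4 or female smoke 1, 2 or 4 (0.0511 to 0.0611). Gasp rose by 0.64 in females (adjusted p = 0.00327), without each library too. Its call was lost in replicates 1 and 2 and in 3 and 4 alone (limma adjusted p 0.118 and 0.0594). verm, a chitin deacetylase of the tracheal cuticle, rose by 0.81 in males (adjusted p = 0.0286), a call lost without male air 1, 2 or 3 or male smoke 1, 3 or 4 (0.0537 to 0.0718). trh rose by 0.51 in females (adjusted p = 0.0433) and by 0.63 in males (adjusted p = 0.0196). The female call of trh was lost without any library other than female air 2 (adjusted p 0.0624 to 0.108), by edgeR (0.0524), with no filter (0.0616) and with libraries scaled to the same upper quartile (0.0530) or total (0.0813), and the male call without male air 2 or male smoke 3 or 4 (0.0509 to 0.0581). The part of these tissues in the glue gene values was not tested.

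Genes whose pattern was most like that of the 6 Sgs genes were found by Pearson's r over the 16 libraries, among 8455 genes, as a description; the libraries share their normalisation, and r rests heavily on male air 3. The 8 closest were CG7606 (r = 0.976), CG12310 (0.961), CG7587 (0.961), CG42460 (0.954), CG15404 (0.942), CG34279 (0.941), CG15890 (0.936) and CG11089 (0.929). Without female air 1 and male air 3, the 2 libraries farthest from the median, r was 0.906 for CG7606, 0.884 for CG7587 and 0.835 for CG12310. CG7606 had 178, 399, 55.5 and 70.7 in female air, 3.71 to 16.8 in female smoke and 9046 in male air 3. Only 2 of the 8 stayed among the closest 8 without those libraries. Among the 10 genes themselves, r was 0.92 for fkh, 0.84 for sage and 0.65 for ng3, and Spearman's rho was 0.68, 0.05 and 0.64.

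In the authors' deposited tables of called genes, 602 of all 17559 genes stand as lower in female smoke, 8 of the 10 among them. Of the 10, fkh and sage are not listed. The authors' tables rest on the same libraries, and the 10 were chosen with their values known, so nothing is read from that count. None of the 10 stands among the 1156 genes lower in male smoke, the 681 higher in female smoke or the 429 higher in male smoke in those deposited tables.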

How the data were processed

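Per sex, the authors deposited normalised signal for 17559 genes in 8 libraries. Judged from the values these are gene read counts over a factor that is constant within a library: 100% lay within 0.01 of a whole number of reads, with factors of 0.750 to 1.30. The authors' comparison tables, also deposited, hold log2 fold changes, a test score and p-values under DESeq2's column names per the file headers, and only membership in their called lists is used. STAR 2.6.0c, DESeq2 1.22.2 and, as the only build, a human one are named in the submitters' processing notes. Gene identifiers are from FlyBase, and no coordinates are printed. The sources used here do not give the counting tool, annotation or use of strand, and reads of Sgs4, ng3 and the overlapping gene dnc may not be separated.

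Of 17559 identifiers 17253 matched the Ensembl annotation used for names, exon lengths, chromosome arms and neighbours. Replicates of a group differed by more than sampling noise in all 24 pairs (chi-square per degree of freedom 23.8 to 318).

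Genes that reached 10 in 4 or more of a sex's 8 libraries were tested by limma 3.58.1 with a mean-variance trend in R 4.3.3, two-sided, on log2(value + 1). Benjamini-Hochberg adjustment ran over all genes tested (8877 in females, 8705 in males), with a threshold of 0.05, and called 1599 genes in females and 1178 in males. The count test on recovered reads (edgeR 4.0.16) called 924 higher and 652 lower in females and 662 and 346 in males; DESeq2 1.42.0 was a further alternative. Fold changes on this scale understate low genes. CPM per kilobase uses the summed exon length of each gene. The scripts were tested on simulated counts.

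The members and lists were chosen with earlier results of these data known, so the 10 genes have no test. edgeR and DESeq2 without female air 2 or male air 3 were added after seeing the data. Named beside them were their nearest protein-coding neighbours, genes of the salivary list, up to 3 called genes per other list with the largest change and no overlap, and the 8 genes of highest likeness. Of the listed symbols, Sgs2, br, btl, tyn, wupA, PPO1, ap and wg were not analysed here.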

Additional observations from a re-analysis of the deposited data

Results flagged for a closer look

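Values were singled out where 1 library of a group of 4 lay far from its nearest neighbour for the group's whole range (Dixon's criterion). It was applied to the genes next to the glue genes and to the summed lists, in 66 groups with at least 10 normalised counts or reads in 1 library, and singled out 16. It was not applied to the 10 genes, nor to genes named for their values. Chance does this in about 1 in 20 groups of independent, normally distributed values. These values were not put on a log scale and some groups share genes, so that rate need not hold here. No explanation is weighed.

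Male air 3 was the high library for CG7587 (2255 normalised counts), CG7606 (9046), hoe2 (387) and VhaM8.9 (7021), and for the summed fat body genes (34527 CPM). CG7587 (22.2) and hoe2 (17.9) were high in male smoke 2, and CG7512, next to Sgs3, in female smoke 3 (311).

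Female air 2 was high for the summed ecdysone-response genes (2392 CPM) and the tracheal genes (13782). Other high sums were those of the fat body genes in female smoke 3 (5732) and male smoke 3 (1719), the muscle genes in male smoke 2 (2450.2), and the midgut genes in female smoke 1 (46.7), male air 4 (40.4) and male smoke 3 (111).

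Gasp changed differently in the sexes by limma's test of the difference, the female log2 change being 0.49 higher than the male one (adjusted p = 0.0316). Its log2 change was 0.64 in females, where 4 of 4 smoke libraries were above all air libraries, and 0.15 in males. Without male air 3 the difference was 0.50 and was not called (adjusted p = 0.0554).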

How the results depend on the processing

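The signs of the 10 genes' differences were kept in 273 of 280 combinations of gene, sex and setting and changed in 7: sage in females without female air 2 (0.27) and in replicates 3 and 4 alone (0.37), and in males Sgs1 (0.53 without male air 3, 1.16 in replicates 1 and 2 alone), ng3 (0.03 without male air 3) and sage (0.20 and 0.47 in those 2 settings). The log2 difference of their summed level was -3.99 in females (-4.39 to -3.63 leaving out 1 library, -4.71 in replicates 1 and 2 alone, -3.27 in replicates 3 and 4 alone) and -2.75 in males (-3.73 to -0.62, -0.86 and -4.64), male air 3 setting the male value. Genes called in females numbered 1599, and 994 to 1998 leaving out 1 library, 12 in replicates 1 and 2 alone and 799 in replicates 3 and 4 alone. In males they numbered 1178, and 478 to 1156 leaving out 1 library, 1976 by DESeq2, 146 in replicates 1 and 2 alone and 11 in replicates 3 and 4 alone. Those pairs of replicates hold fewer samples. Without female air 2 edgeR called 2035 and DESeq2 2579 in females, and without male air 3 they called 637 and 1350 in males, alternatives chosen after seeing the data. The sex difference was called for 187 genes, or 154 without male air 3, which was left out after its glue values were seen. Scaling moved the split of higher to lower calls in females from 970 and 629 to 833 and 820 (same upper quartile) or 643 and 1038 (same total), and in males from 774 and 404 to 659 and 398 or 444 and 470. Of the other salivary genes, 2 were called in females (1 with a filter of 50, 0 in replicates 1 and 2 alone, 1 in replicates 3 and 4 alone, 4 by DESeq2 without female air 2, 0 to 3 leaving out 1 library, where CG7587 no longer passed the filter without an air library) and 1 in males (0 at the same upper quartile, at the same total, in either pair of replicates and by edgeR without male air 3, 0 to 1 leaving out 1 library); the cause was otherwise not tested. The labels do not say what a replicate number marks. The column names of replicates 1 and 2 are written differently from those of 3 and 4, which is why the pairs were also taken alone. Names of replicates 3 and 4 end in a further number, close over sex and exposure within a replicate, whose meaning is not given. The replicate numbers were not treated as pairing the samples. The reason was that same-numbered libraries correlated at -0.10 to 0.46, over 0.1 in 6 of 8 pairs and not in every pair of either sex. As a hint from the data, 12 of 16 samples correlated best with their own replicate number. These correlations do not settle whether the numbers pair the samples. With the replicate block 2504 genes were called in females, 2816 in males and 669 for the sex difference, whose split of higher to lower went from 172 and 15 to 340 and 329. Among the genes named above, the block ended the call of ImpE1 (adjusted p = 0.0773) and brought one of toe (0.00962); it called 7 fat body and 4 hemocyte genes lower in males, where limma without it called 0, and 1 muscle gene in place of 4. The female smoke values of Sgs1 and Sgs5 and the male values of ng3 and fkh rest on few reads, which limits their precision.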
